A study of Mus musculus with 6 samples.

Results

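The transcription factors that set and maintain myeloid identity were followed as a set of 9 genes, *Spi1*, *Irf8*, *Cebpa*, *Cebpb*, *Cebpe*, *Maf*, *Klf4*, *Runx1* and *Gfi1*, chosen by symbol from the 25701 genes of the count table. All 9 were found, and 8 passed the filter on low counts that left 13485 genes for testing; *Cebpe* did not. The RNA came from CD11b+ cells, the integrin-bearing fraction of monocytes, macrophages and neutrophils, selected on magnetic beads after collagenase digestion of flank tumors grown under the skin from TC1, a mouse lung epithelial tumor cell line. Both groups carried MCT2 loxP/loxP with mCre-Tg on the C57BL/6 background and entered the experiment at 8 weeks of age, and tumors were taken at 24 days. MCT2 KO (3 samples) had received tamoxifen and MCT2 CO (3 samples) vehicle, so the drug and the deletion of *Slc16a7*, the gene of the pyruvate and lactate transporter MCT2, cannot be told apart. The labels do not name the promoter that drives the recombinase, and the injected tumor cells carry their own *Slc16a7*. In the sample records the tissue is given as lung and the cells as purified macrophages, and nothing in them says that each sample came from a different mouse, so p values measure the spread between these samples.

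Myeloid cells arise from hematopoietic progenitors under a small group of DNA-binding proteins. PU.1, the product of *Spi1*, opens myeloid enhancers at every step from progenitor to macrophage, and RUNX1 acts upstream of it. C/EBPα drives the step to granulocyte and monocyte progenitors, IRF8 with KLF4 then favours monocytes and dendritic cells, and C/EBPε with GFI1 favours neutrophils. In mature macrophages, C/EBPβ supports survival and the response to inflammatory signals, and MAF holds the resting, non-dividing state. In a tumor, such factors are read as markers of which myeloid cells are present and in which state.

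The promoters of the factors on which the comparison turned are shown first, from 250 bases before to 50 bases after the start site, as given by RefSeq for GRCm38.p6. Windows were found for 6 of the 9 genes (*Irf8*, *Cebpa*, *Cebpb*, *Klf4*, *Runx1* and *Gfi1*). Sequences run 5′ to 3′ on the strand of the gene, and capitals mark matches, on either strand, to 7 short motifs that were chosen after the sequences had been seen and are spelled out with the results: the TATA, CCAAT and GC boxes and the cores of the cAMP response element (CRE), of ETS sites, of RUNX sites and of C/EBP sites. No motif contains another, adjoining or overlapping matches are joined in the print, and positions count from 1 at the start site, with -1 just before it. *Cebpb* and *Klf4* are shown as the factors with the lowest unadjusted p values, *Cebpa* as the relative of *Cebpb*, and *Irf8* as the factor with the highest fitted change.
*Cebpb* (chr2:167688665-167688964, plus strand): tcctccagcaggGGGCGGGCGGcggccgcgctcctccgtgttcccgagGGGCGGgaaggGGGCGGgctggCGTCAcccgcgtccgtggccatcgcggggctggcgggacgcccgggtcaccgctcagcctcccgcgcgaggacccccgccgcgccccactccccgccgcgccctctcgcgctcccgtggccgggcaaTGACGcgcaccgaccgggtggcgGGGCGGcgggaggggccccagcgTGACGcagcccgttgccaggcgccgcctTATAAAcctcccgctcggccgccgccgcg
*Klf4* (chr4:55532426-55532725, minus strand): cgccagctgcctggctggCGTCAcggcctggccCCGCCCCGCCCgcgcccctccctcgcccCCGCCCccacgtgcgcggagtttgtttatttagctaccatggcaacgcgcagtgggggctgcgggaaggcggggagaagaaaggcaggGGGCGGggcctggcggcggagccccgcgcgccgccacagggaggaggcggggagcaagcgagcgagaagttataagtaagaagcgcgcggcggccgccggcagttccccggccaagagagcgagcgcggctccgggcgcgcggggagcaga
*Cebpa* (chr7:35119043-35119342, plus strand): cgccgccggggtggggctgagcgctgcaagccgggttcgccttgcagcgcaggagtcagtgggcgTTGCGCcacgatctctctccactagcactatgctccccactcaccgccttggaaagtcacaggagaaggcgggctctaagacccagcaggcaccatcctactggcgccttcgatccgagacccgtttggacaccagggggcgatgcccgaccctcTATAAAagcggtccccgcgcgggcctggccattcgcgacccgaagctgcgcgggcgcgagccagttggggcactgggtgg
*Irf8* (chr8:120736108-120736407, plus strand): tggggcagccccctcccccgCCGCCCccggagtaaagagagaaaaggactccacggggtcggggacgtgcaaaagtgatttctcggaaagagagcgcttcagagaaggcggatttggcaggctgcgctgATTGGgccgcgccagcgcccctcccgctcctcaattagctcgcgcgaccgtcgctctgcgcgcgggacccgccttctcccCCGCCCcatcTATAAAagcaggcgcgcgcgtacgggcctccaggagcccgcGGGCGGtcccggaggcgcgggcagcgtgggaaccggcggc

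The *Cebpb* window was 80.7% G and C and held 5 matches to the GC box, 3 to the CRE core and a TATA box match at position 22. The GC box was searched as GGGCGG and occurred in 35.7% of the 32851 windows of this length. The CRE cores began at positions -53 and -7 on the strand of the gene and at -180 on the other strand. This core, searched as TGACG, occurred in 20.8% of all windows. The *Klf4* window (74.3% G and C) held 4 GC boxes and 1 CRE core but no TATA box match. *Cebpa* and *Irf8* each had a TATA box match, at positions -30 and -31, searched as TATAAA and present in 13.6% of all windows. *Cebpa* also held the C/EBP core, searched as TTGCGC and found in 6.5% of windows, at position -185. *Irf8* held a CCAAT box on the other strand, as did 37.4% of windows on either strand. The ETS core, searched as GAGGAA, was in 28.3% of all windows and in none of these 4. The RUNX core, searched as TGTGGT, was in 16.8% and also in none of these 4. The first *Runx1* window, not printed, had 2 matches to the RUNX core. Each match is a description of letters, not of binding.

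**Figure D1:**
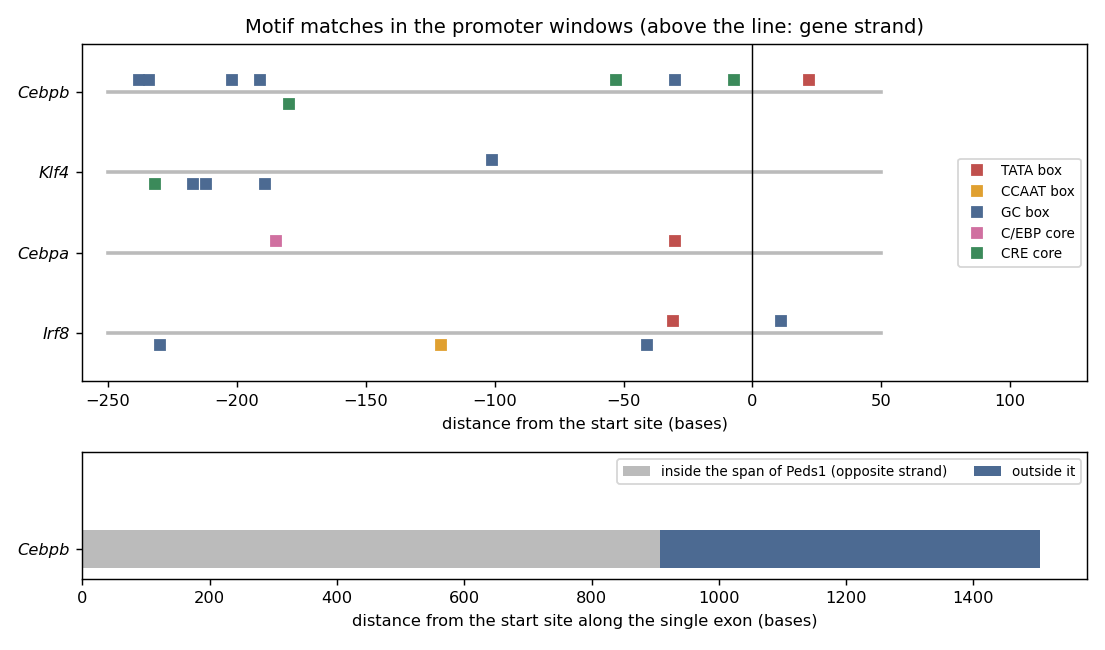
The upper panel places the motif matches of the 4 printed promoters by distance from the start site in bases, with matches on the strand of the gene above each line and matches on the other strand below it; *Cebpb* carries 5 GC boxes and 3 CRE cores. The lower panel draws the single exon of *Cebpb*, in bases from its start site, of which the first 908 of 1504 bases lie inside the span of *Peds1* on the opposite strand.

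Total counts were between 24863611 and 31713704 per library, and counting error was small except for *Cebpe* and *Gfi1*. *Slc16a7* had 133 to 196 counts in MCT2 KO and 287 to 481 in MCT2 CO. The macrophage genes *Csf1r* (843 to 1408 CPM, the read count scaled to the TMM-corrected library total) and *C1qa* (949 to 1863 CPM) were abundant, while *Itgam*, the gene of CD11b itself, had 1 count in all 6 libraries together, with 99.1% of its exons inside the span of *Gm49368*. No library was a duplicate of another. In bulk RNA, fewer cells of a type and less RNA per cell cannot be told apart.

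None of the 9 factors was called different between MCT2 KO and MCT2 CO. The limits for a call were 0.05 for the adjusted p and 0.58 for the log2 fold change in either direction, in the quasi-likelihood test of edgeR, adjusted over all genes tested by Benjamini–Hochberg, and 0% of all genes passed both. At an unadjusted p under 0.05 there was 1 factor of 8, *Cebpb*, lower in MCT2 KO, where 9.37% of all genes tested met that limit (3.77% higher, 5.6% lower). DESeq2 without a filter on low counts called 0 of the factors and 0.584% of the genes to which it gave an adjusted p. The fitted change was above 0 for 2 factors (*Spi1* and *Irf8*) and below 0 for 6, with a median log2 fold change of -0.18 against 0 over all genes tested, of which 49.9% were below 0. In none of the 8 did the groups separate completely, while 15.8% of all genes tested did so (7.07% with MCT2 KO higher, 8.77% with MCT2 KO lower).

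*Spi1* (ENSMUSG00000002111, chromosome 2 of GRCm38, 91082390 to 91115756, plus strand) encodes PU.1, the ETS-family factor at the centre of myeloid development. It had 164, 135 and 119 CPM in MCT2 CO replicates 1 to 3 and 205, 119 and 150.4 CPM in MCT2 KO replicates 1 to 3. MCT2 KO replicate 1 was the highest library and the other two lay inside the range of MCT2 CO. The means were 139 ± 22.9 (SD, n = 3) and 158 ± 43.7 CPM (SD, n = 3), with a log2 fold change of 0.18 (standard error, SE, 0.20, edgeR adjusted p = 0.799).

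*Irf8* (ENSMUSG00000041515, chromosome 8, 120736358 to 120756694, plus strand) encodes the interferon regulatory factor that partners PU.1 in monocyte and dendritic cell development. Its levels were 113, 133 and 103 CPM in MCT2 CO and 161, 103 and 137 CPM in MCT2 KO. MCT2 KO replicates 1 and 3 stood above all MCT2 CO libraries, and MCT2 KO replicate 2 was level with the lowest of them. The means were 116 ± 15.4 and 134 ± 29.1 CPM (SD, n = 3 each), and the log2 fold change was 0.20 (SE 0.17, edgeR adjusted p = 0.738). Without MCT2 KO replicate 2, it was 0.36 (SE 0.13, edgeR adjusted p = 0.400).

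*Klf4* (ENSMUSG00000003032, chromosome 4, 55527143 to 55532466, minus strand), a zinc finger factor of monocyte development and of alternative activation, was the most abundant of the set. It had 196, 219 and 288 CPM in MCT2 CO and 217, 123 and 168 CPM in MCT2 KO. MCT2 KO replicates 2 and 3 lay below every MCT2 CO library, whereas MCT2 KO replicate 1 lay among them. The means were 234 ± 48.2 and 169 ± 47 CPM (SD, n = 3 each), with a log2 fold change of -0.47 (SE 0.22, edgeR adjusted p = 0.554). *Klf4* is also an early response gene that tissue dissociation can induce, and the summed level of 17 dissociation response genes was 15820 to 18690 CPM in MCT2 CO and 13140 to 16410 CPM in MCT2 KO. Of these 17 genes, 15 were fitted below 0, with a median log2 fold change of -0.33; their part in the *Klf4* values was not tested.

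*Cebpa* (ENSMUSG00000034957, chromosome 7, 35119293 to 35121928, plus strand) encodes C/EBPα, which commits progenitors to the granulocyte and monocyte line. It had 68.7, 49.7 and 39.7 CPM in MCT2 CO and 72.8, 30.4 and 50.4 CPM in MCT2 KO. Both the highest and the lowest library belonged to MCT2 KO. The means, 52.7 ± 14.7 and 51.2 ± 21.3 CPM (SD, n = 3 each), gave a log2 fold change of -0.05 (SE 0.31, edgeR adjusted p = 0.972). The fitted sign turned to 0.19 without MCT2 CO replicate 1 and to 0.23 without MCT2 KO replicate 2.

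*Cebpb* (ENSMUSG00000056501, chromosome 2, 167688915 to 167690418, plus strand) encodes C/EBPβ, which in macrophages is induced by cytokines and by cAMP. It had 15.3, 11.7 and 18.4 CPM in MCT2 CO and 12.4, 9.09 and 9.52 CPM in MCT2 KO. Only MCT2 KO replicate 1 reached into the range of MCT2 CO, above MCT2 CO replicate 2, so that the groups overlapped by a single library. The means were 15.1 ± 3.4 and 10.3 ± 1.78 CPM (SD, n = 3 each), and the log2 fold change was -0.55 (SE 0.19, edgeR unadjusted p = 0.0216 and adjusted p = 0.475). DESeq2 gave -0.54 with an adjusted p of 0.322. Over fits that omitted 1 library each, it lay between -0.71 and -0.39.

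The counts of *Cebpb* did not cover its whole transcript. The gene has 1 exon of 1504 bases, and 60.4% of it, the first 908 bases from the start site, lies in the span of *Peds1* (*Tmem189* in GENCODE M21) on the opposite strand. Counting was done over whole gene spans, and 840 of 840 genes that lie wholly inside a span of the opposite strand had 0 counts, as happens where reads in a shared stretch are given to neither gene. On that reading, the 237 to 490 counts of *Cebpb* per library came from the remaining 596 bases. *Peds1*, which shares that stretch, had 64 to 75 counts in MCT2 CO and 64 to 90 in MCT2 KO. Per kilobase of the stretch that could be counted, *Cebpb* averaged 21.4 CPM, in place of 8.46 CPM per kilobase of the whole exon.

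*Cebpe* (ENSMUSG00000052435, chromosome 14, 54710360 to 54712174, minus strand) encodes C/EBPε, the factor of late neutrophil maturation and secondary granules. It had 6, 6 and 9 counts in MCT2 CO and 1, 4 and 0 counts in MCT2 KO, which is 0.2, 0.231 and 0.339 CPM against 0.0419, 0.123 and 0 CPM. Every MCT2 KO library was below every MCT2 CO library (p = 0.1 in an exact two-sided permutation test, which can go no lower with 3 against 3). The same held in 8.77% of the genes tested, which do not include *Cebpe*, and no share was taken over genes below the filter. Summed over each group, there were 5 counts in MCT2 KO and 21 in MCT2 CO, a ratio of normalized sums of 0.242 (95% exact Poisson interval 0.0712 to 0.659, which covers counting error only). A count of 0 allows up to 3 counts, or 0.0921 to 0.126 CPM by library, so 2 of the MCT2 KO values were at or below what such a count allows. Kept in an edgeR fit with no filter on low counts, *Cebpe* came to -2 on the log2 scale (SE 0.79, edgeR adjusted p = 0.559), a value that depends on how the count of 0 is handled.

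*Gfi1* (ENSMUSG00000029275, chromosome 5, 107716657 to 107726036, minus strand) encodes the zinc finger repressor that favours neutrophils over monocytes. It had 11, 20 and 13 counts in MCT2 CO and 12, 7 and 11 counts in MCT2 KO. MCT2 CO replicate 1 lay below MCT2 KO replicates 1 and 3, so the groups overlapped. The log2 fold change was -0.51 (SE 0.45, edgeR adjusted p = 0.754), and the ratio of normalized sums was 0.692, with a 95% exact Poisson interval of 0.42 to 1.13. Beside these low values of *Cebpe* and *Gfi1*, most but not all markers of neutrophils themselves were fitted higher in MCT2 KO. Of 9 neutrophil markers tested, 8 were fitted above 0, with a median log2 fold change of 1.53, 6 had groups without overlap and 5 were called by DESeq2 (0 by edgeR). *Ngp*, counted in each of these, passed the filter on low counts through MCT2 KO alone, so its direction was fixed by the filter. Over all genes tested, 7.07% had groups apart with MCT2 KO higher. DESeq2 called 0.584% of the genes to which it gave an adjusted p. *S100a9*, a calcium-binding protein of neutrophils, had 2.58 to 4.18 CPM in MCT2 CO and 7.63 to 20.9 CPM in MCT2 KO, and *Retnlg* had 0.308 to 0.489 and 1.08 to 2.94 CPM. *Csf3r* had overlapping groups, at 70.9 to 94.3 and 41.1 to 120 CPM (log2 fold change 0.11), as had *Mmp9* (0.33). *Cxcr2* was fitted below 0 (-0.17), also with overlap. The summed level of the 11 markers was 111 to 127 CPM in MCT2 CO and 117 to 209 CPM in MCT2 KO, and without *Csf3r*, its most abundant gene, 16.7 to 56 and 34.7 to 89.3 CPM. The part of neutrophils in the values of *Cebpe* and *Gfi1* was not tested.

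*Maf* (ENSMUSG00000055435, chromosome 8, 115682942 to 115707794, minus strand) encodes c-MAF, a leucine zipper factor of tissue macrophages and of *Il10* transcription. It had 62.4, 44.3 and 55.4 CPM in MCT2 CO and 54.7, 47.4 and 47.7 CPM in MCT2 KO. All 3 MCT2 KO values lay inside the range of MCT2 CO. The means were 54 ± 9.12 and 49.9 ± 4.15 CPM (SD, n = 3 each), with a log2 fold change of -0.11 (SE 0.13, edgeR adjusted p = 0.813).

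*Runx1* (ENSMUSG00000022952, chromosome 16, 92601466 to 92826149, minus strand) encodes the core-binding factor subunit that starts definitive hematopoiesis and binds beside PU.1 in macrophages. It had 145, 138 and 145 CPM in MCT2 CO, the tightest group of the set, and 143, 97.6 and 118 CPM in MCT2 KO. MCT2 KO replicates 2 and 3 were below all MCT2 CO libraries and MCT2 KO replicate 1 was among them. The means were 143 ± 3.97 and 119.6 ± 22.9 CPM (SD, n = 3 each), and the log2 fold change was -0.25 (SE 0.13, edgeR adjusted p = 0.589). Without the TMM scaling factor, MCT2 KO replicate 1 was also under the lowest MCT2 CO library and the groups of *Runx1* no longer overlapped. Its partner subunit *Cbfb* had 250 ± 14.7 CPM in MCT2 CO and 245 ± 10.4 CPM in MCT2 KO (SD, n = 3 each).

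**Figure D2:**
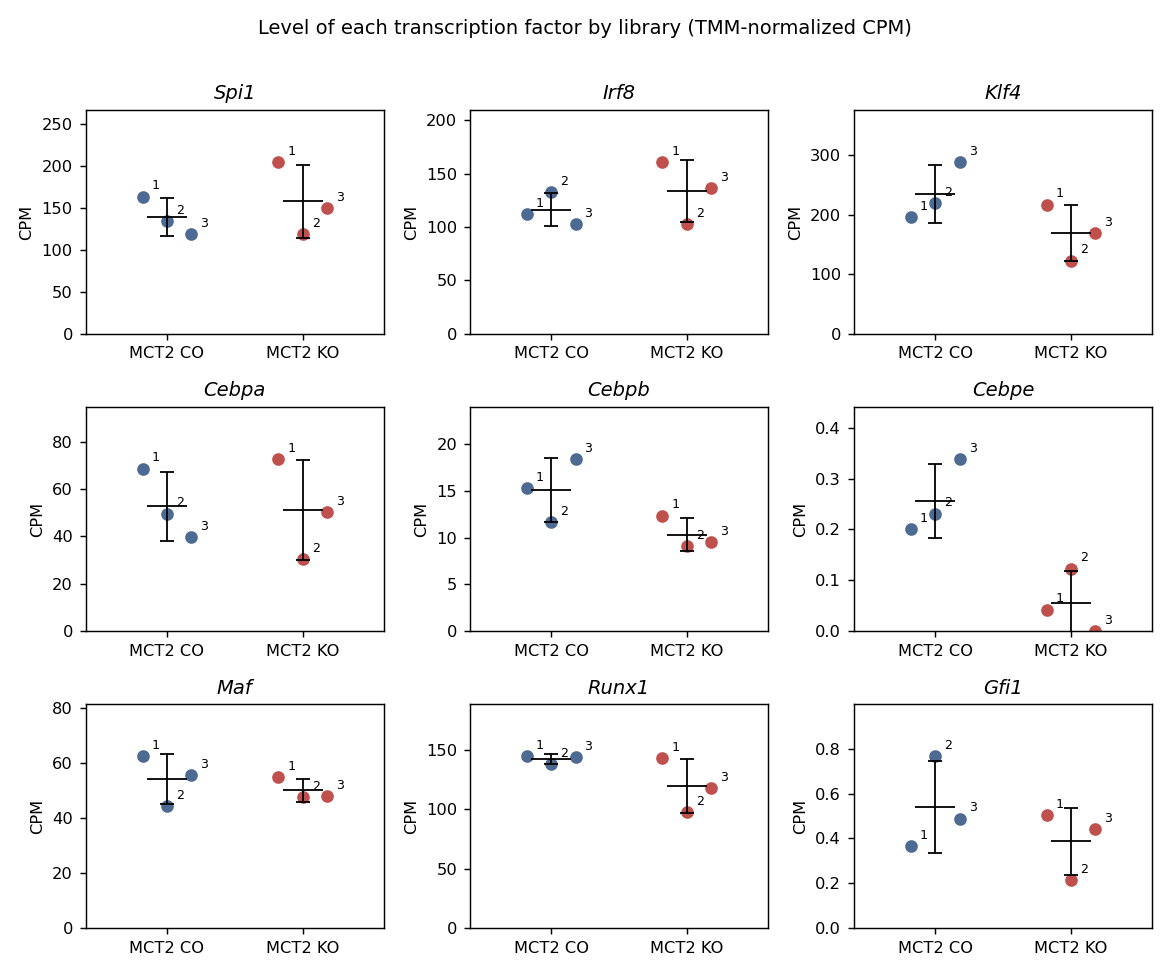
Each panel plots 1 factor, with TMM-normalized CPM on a linear axis from 0; points are libraries numbered by replicate (blue MCT2 CO, red MCT2 KO), and the black lines give the mean and SD of 3 libraries, cut at 0 for *Cebpe*. The groups are apart in *Cebpe* alone, at 0.2 to 0.339 CPM in MCT2 CO and 0 to 0.123 CPM in MCT2 KO, and red point 2 is the lowest red point in the other 8 panels.

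**Figure D3:**
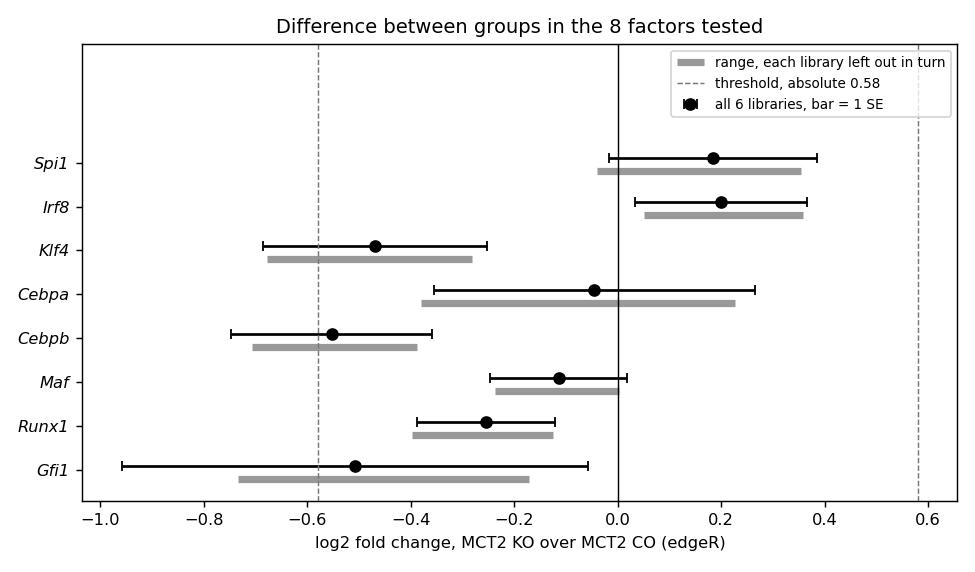
The log2 fold change of MCT2 KO over MCT2 CO is plotted for the 8 factors tested, as the edgeR value with 1 standard error (black) and as the range over fits that left out 1 library each (grey), with dashed lines at an absolute value of 0.58. *Cebpb*, *Klf4*, *Runx1* and *Gfi1* stay below 0 and *Irf8* above 0 over the whole grey range, while *Spi1*, *Cebpa* and *Maf* cross 0.

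Levels of different factors were compared per kilobase of exon. Over the 6 libraries, *Klf4* averaged 66.2 and *Spi1* 55.2 CPM per kilobase, which put them at the 95.4th and 94.4th percentile of the genes tested. *Cebpa* (19.7), *Irf8* (17.7), *Runx1* (10.9), *Cebpb* (8.46) and *Maf* (6.31) followed, and *Gfi1* (0.146) and *Cebpe* (0.126) were lowest. Neighbours in this order were compared within libraries by exact two-sided sign-flip permutation tests over 6 libraries, 8 pairs in all, whose smallest p is 0.0312 and smallest adjusted p 0.0625. No pair could therefore pass 0.05 after adjustment. *Spi1* over *Cebpa*, *Irf8* over *Runx1*, *Cebpb* over *Maf* and *Maf* over *Gfi1* held in 6 of 6 libraries, and *Runx1* over *Cebpb* in 5 of 6. *Klf4* and *Spi1*, *Cebpa* and *Irf8*, and *Gfi1* and *Cebpe* stood in either order, each with the first ahead in 3 of 6. With *Cebpb* taken per kilobase of its countable stretch, at 21.4 CPM, it stood after *Klf4* and *Spi1*. Reads in introns counted as well, since the spans were counted whole, which weighs most on *Runx1*, with 12025 exon bases in a span of 224684.

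The 8 factors tested ranked the 3 MCT2 KO libraries alike, a pattern that was noticed after the values were seen. In all 8 factors tested, MCT2 KO replicate 1 was highest and MCT2 KO replicate 2 lowest of the 3, an order found in 25.1% of all genes tested (3378 of 13485). The ratio of MCT2 KO replicate 1 to MCT2 KO replicate 2 had a median of 1.64 over these 8 factors and of 1 over all genes tested. It was 2.4 for *Cebpa*, 2.34 for *Gfi1*, 1.76 for *Klf4*, 1.72 for *Spi1*, 1.56 for *Irf8* and 1.47 for *Runx1*, and smallest for *Cebpb* (1.36) and *Maf* (1.16). *Cebpe*, with 1 and 4 counts, stood the other way, at 0.342.

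The same libraries also differed in markers of cell types. The summed level of 11 macrophage markers was 14950 CPM in MCT2 KO replicate 1, 7121 CPM in MCT2 KO replicate 2 and 9143 CPM in MCT2 KO replicate 3, against 7314 to 11050 CPM in MCT2 CO. The largest part of that sum was *Apoe*, at 6368, 2299 and 2981 CPM in MCT2 KO replicates 1 to 3. Not all of these markers were low in MCT2 KO replicate 2, where *Mertk* had its highest level (240 CPM, others 163 to 204). In summed level, MCT2 KO replicate 2 was also lowest of all libraries in 9 dendritic cell markers (35.3 CPM, others 58.1 to 78.3), in 11 B cell markers (37.5 CPM, others 97 to 124), and in T and NK cell markers (19.8 CPM, others 52.2 to 104.8). The part of these cell types in the order of the factors was not tested. Of 9 B cell markers tested, 8 were fitted below 0 in MCT2 KO, with a median log2 fold change of -0.58. Groups did not overlap in 4, while 8.77% of all genes tested had groups apart with MCT2 KO lower. DESeq2 without a filter on low counts called 3 of all 11 (0 by edgeR), against 0.584% of the genes to which it gave an adjusted p. *Blk*, among the 8 and the 4, passed the filter on low counts through MCT2 CO alone. Without *Ighm*, their most abundant gene, the B cell markers summed to 34.6 to 40.1 CPM in MCT2 CO and 18 to 34.4 CPM in MCT2 KO. *Irf8* and the related factor *Spib* are B cell factors as well, and the part of B cells in their values was not tested. Without MCT2 KO replicate 2, the log2 fold changes were 0.35 for *Spi1*, 0.36 for *Irf8*, 0.23 for *Cebpa*, -0.08 for *Maf*, -0.12 for *Runx1*, -0.18 for *Gfi1*, -0.28 for *Klf4* and -0.47 for *Cebpb*, with none called.

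**Figure D4:**
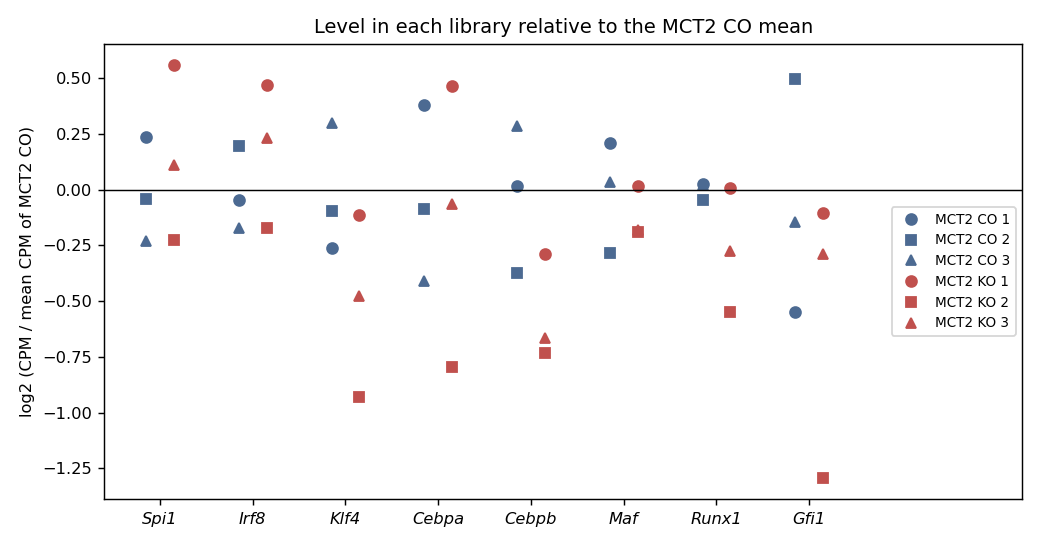
The vertical axis is the log2 ratio of the CPM of each library to the mean of MCT2 CO, for the 8 factors tested; colour gives the group and symbol shape the replicate number. In every factor the red circle (MCT2 KO replicate 1) lies above the red triangle (replicate 3) and the red square (replicate 2) is lowest, from -0.17 for *Irf8* to -1.29 for *Gfi1*.

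Ratios between factors within a library do not depend on scaling. The log2 ratio of *Cebpb* to *Cebpa* counts (0.5 added to each) was -2.17, -2.09 and -1.11 in MCT2 CO and -2.56, -1.74 and -2.4 in MCT2 KO, with a difference of -0.44 (exact permutation test, two-sided, p = 0.4). That of *Irf8* to *Gfi1*, which sets a monocyte factor against a neutrophil factor, was 8.2, 7.4 and 7.67 in MCT2 CO and 8.27, 8.81 and 8.21 in MCT2 KO. Every MCT2 KO library was above every MCT2 CO library, by 0.67 on average (exact two-sided permutation test, p = 0.1, again the lowest possible). The gap between the groups was narrow, from 8.196 in MCT2 CO replicate 1 to 8.207 in MCT2 KO replicate 3, each with 11 *Gfi1* counts. In these libraries, 8 of 9 neutrophil markers were fitted above 0. *Ngp*, among these 8, passed the filter on low counts through MCT2 KO alone. That of *Irf8* to *Cebpe* was 9.02, 9.06 and 8.17 in MCT2 CO and 11.3, 9.55 and 12.7 in MCT2 KO, also without overlap. The difference of the means was 2.45 (p = 0.1 by the same exact test) and was 1.58 with 2 counts added in place of 0.5, since MCT2 KO replicate 3 had no *Cebpe* count.

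Among themselves, the factors had differing patterns over the 6 libraries, given here as a description because the points share libraries and scaling. Pearson's r of log2 CPM was 0.908 for *Spi1* with *Cebpa*, 0.895 for *Klf4* with *Runx1*, 0.845 for *Klf4* with *Cebpb*, and 0.004 for *Spi1* with *Cebpb*. The genes whose pattern was most like that of a factor, over the same 6 libraries and among all genes tested, were *Zmynd11* (r = 0.995) for *Spi1*, *Ap5z1* (0.995) for *Irf8*, *Disc1* (0.992) for *Cebpa* and *Rpl27a* (0.988) for *Cebpb*. For *Klf4* it was *Chst3* (0.996), for *Runx1* *Tut7* (0.992) and for *Maf* *Bola3* (0.984). Each is the highest of the 13485 genes tested, over 6 points.

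The families of the 9 factors were looked at next. Of 27 related factors, all of which passed the filter, 12 were fitted above 0 and 15 below 0, with a median log2 fold change of -0.03 and 0 called. At an unadjusted p under 0.05 there were 6 of 27, 1 higher and 5 lower, against 9.37% of all genes tested (3.77% higher, 5.6% lower). *Spic*, an ETS relative of PU.1 that marks red pulp and other iron-recycling macrophages, had 1.47, 1.15 and 2.22 CPM in MCT2 CO and 3.15, 3.31 and 3.41 CPM in MCT2 KO. The groups of *Spic* did not overlap, and the log2 fold change was 1.03 (SE 0.26, edgeR adjusted p = 0.390). *Cebpd*, which encodes the C/EBP member induced together with C/EBPβ in inflammation, had 35.5, 22.6 and 29.2 CPM in MCT2 CO and 22.4, 16.1 and 17.2 CPM in MCT2 KO. Its groups did not overlap either, with 22.6 CPM in the lowest MCT2 CO and 22.4 CPM in the highest MCT2 KO library, and the log2 fold change was -0.65 (SE 0.19, edgeR adjusted p = 0.426). As with *Cebpb*, part of *Cebpd* (48.3% of its exons) lies inside a gene of the opposite strand, *Spidr*. The other 4 of the lower factors, named after their values were seen, were *Spib* (-0.84), *Mafk* (-0.55), *Klf10* (-0.37) and *Maff* (-0.26). The 3 most abundant relatives were *Klf6* (log2 fold change -0.21), *Irf7* (0.01) and *Ets2* (0.01), each with overlapping groups.

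Of 23 other regulators of myeloid cells tested, 9 were fitted above 0 and 14 below 0, with a median of -0.04 and 0 called. The 3 at an unadjusted p under 0.05 were all lower in MCT2 KO, with groups that did not overlap. Over all genes tested, 5.6% were lower at that limit and 8.77% had groups apart with MCT2 KO lower. *Zbtb46*, a marker of classical dendritic cells, had 16 to 17.3 CPM in MCT2 CO and 11.6 to 14.1 CPM in MCT2 KO (log2 fold change -0.33, edgeR adjusted p = 0.475). *Gata2*, a factor of progenitors and mast cells, had 35 to 51.5 CPM in MCT2 CO and 25.7 to 34.1 CPM in MCT2 KO (log2 fold change -0.43, edgeR adjusted p = 0.504). The other, *Myb*, a progenitor factor named after its values were seen, had a log2 fold change of -0.60 at 0.675 to 1.43 CPM. Beside *Gata2*, the other 7 markers of mast cells and basophils summed to 10 to 12.3 CPM in MCT2 CO and 7.95 to 11.6 CPM in MCT2 KO, with overlap. The most abundant regulators, *Trib1* (-0.15), *Zeb2* (0.08) and *Bhlhe40* (-0.04), had overlapping groups.

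Known targets of the factors were then read list by list, with 0 genes called in each list by edgeR. At an unadjusted p under 0.05 there were 4 of 17 PU.1 targets, 1 of 12 shared targets of IRF8 and PU.1, 4 of 12 C/EBP targets, 4 of 6 neutrophil granule genes and 1 of 9 MAF targets, all higher in MCT2 KO, and 4 of 11 genes repressed by GFI1, all lower. Over all genes tested, 3.77% were higher and 5.6% lower at that limit, and 15.8% had groups without overlap. DESeq2 without a filter on low counts called 2 neutrophil granule genes and 0 in the other lists, and on the filtered genes it called 2 neutrophil granule genes, 1 C/EBP target, 1 gene repressed by GFI1 and 0 in the others. Of 17 PU.1 targets tested, 15 were fitted above 0, with a median log2 fold change of 0.23. *Fcgr3*, an activating IgG receptor, had 161, 154 and 123 CPM in MCT2 CO and 249, 192 and 183 CPM in MCT2 KO, without overlap (log2 fold change 0.51, SE 0.15, edgeR adjusted p = 0.426). *Tlr4*, the lipopolysaccharide receptor, had 38.3 to 44.6 CPM in MCT2 CO and 48.6 to 55.5 CPM in MCT2 KO (log2 fold change 0.31, edgeR adjusted p = 0.429). *Csf1r*, the receptor for the macrophage growth factor, had 875 to 981 CPM in MCT2 CO and 843 to 1408 CPM in MCT2 KO, with a log2 fold change of 0.16. The macrophage markers, *Csf1r* among them, were fitted above 0 in 11 of 11, with a median of 0.23, and the part of macrophage content in the PU.1 list was not tested.

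Targets that IRF8 shares with PU.1 were fitted above 0 in 8 of 12, with a median of 0.08. The list holds *Klf4* too, which had its lowest log2 fold change (-0.47). *Il18*, a cytokine gene, had 9.19 to 12.6 CPM in MCT2 CO and 12.9 to 14.7 CPM in MCT2 KO (log2 fold change 0.36, edgeR adjusted p = 0.521). *Cd74*, the invariant chain of MHC class II, showed the order that *Irf8* had within MCT2 KO, with 6987, 2323 and 4644 CPM in MCT2 KO replicates 1 to 3, against 3688 to 5622 CPM in MCT2 CO.

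Macrophage targets of C/EBP factors were fitted above 0 in 9 of 12, with a median of 0.15, and thus did not share the sign of *Cebpb*. *Nos2*, the inducible nitric oxide synthase, had 1.27, 2.42 and 0.978 CPM in MCT2 CO and 3.86, 6.66 and 17.8 CPM in MCT2 KO (log2 fold change 2.60, SE 0.59, edgeR adjusted p = 0.370). *Il1rn*, the interleukin-1 receptor antagonist, had 85.8 to 136 CPM in MCT2 CO and 143 to 185 CPM in MCT2 KO (0.52, edgeR adjusted p = 0.444). Both genes had groups without overlap, as had *Arg1* (1.34), named after its values were seen. *Ptgs2* (-0.02) and *Il1b* (-0.02), the most abundant of the list with *Csf1r*, differed by less than their standard errors of 0.11 and 0.30.

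Genes of neutrophil granules, many of them C/EBPε targets, were read beside *Cebpe*. Of 14 such genes, 6 passed the filter on low counts, and *Ngp* passed it through MCT2 KO alone, with no MCT2 CO library at the cutoff of 0.384 CPM, so that its direction was fixed by the filter. The summed level of the 14 genes was 39.8 to 78.3 CPM in MCT2 CO and 92.6 to 156 CPM in MCT2 KO. Its most abundant genes both had overlapping groups, and no sum without them was taken. *Chil3*, also among the monocyte markers, had 23.4 to 49.4 CPM in MCT2 CO and 38.6 to 88.4 CPM in MCT2 KO. *Mmp9* had 7.65 to 43.7 and 14.7 to 47.3 CPM. *Ngp*, a neutrophil granule protein, had 4, 5 and 10 counts in MCT2 CO and 364, 118 and 29 counts in MCT2 KO, so that 1 library held most of the reads (log2 fold change 4.82, SE 1.02, edgeR adjusted p = 0.370). *Mmp8*, the neutrophil collagenase, had 2.54 to 3.54 CPM in MCT2 CO and 4.94 to 6.51 CPM in MCT2 KO (0.86, SE 0.20, edgeR adjusted p = 0.370). *Itgb2l* had 0 counts in every library, with all of its exons inside a gene of the opposite strand. In MCT2 KO replicate 3, *Cebpe* had 0 counts beside 29 of *Ngp*, and in MCT2 KO replicate 1 it had 1 beside 364. The neutrophil markers given beside *Gfi1* share *Ngp* and *Mmp8* with this list, and their part was not tested.

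Targets of MAF were fitted above 0 in 8 of 9, with a median of 0.29, while *Maf* itself had a log2 fold change of -0.11. The complement genes *C1qa* (0.32), *C1qb* (0.31) and *C1qc* (0.29) were the most abundant, and their groups overlapped. They are also among the macrophage markers, and the part of macrophage content in this list was not tested. *F13a1*, coagulation factor XIII of macrophages and monocytes, had 28.9, 24.5 and 30.1 CPM in MCT2 CO and 55.3, 129.5 and 47.8 CPM in MCT2 KO (log2 fold change 1.48, SE 0.35, edgeR adjusted p = 0.380). *Timd4*, a receptor of resident macrophages, was fitted below 0 (-0.72, SE 0.35) at about 1 CPM. *Gpr34* had 0 counts in every library, and its exons lie wholly inside *Cask* on the opposite strand.

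Genes that GFI1 represses were fitted above 0 in 3 of 11 and below 0 in 8, with a median of -0.20, and so had the sign of *Gfi1*, whose own groups overlapped. The list holds *Cebpa* and *Irf8* too. *Id1*, an inhibitor of helix-loop-helix factors, had 99.7, 95.5 and 186 CPM in MCT2 CO and 61.8, 34.3 and 39.1 CPM in MCT2 KO (log2 fold change -1.50, SE 0.31, edgeR adjusted p = 0.370). *Egr2*, a zinc finger factor of macrophage differentiation, had 105 to 157 CPM in MCT2 CO and 82.6 to 88.5 CPM in MCT2 KO (-0.52, SE 0.16, edgeR adjusted p = 0.429). *Nab2* (-0.28) and *Hoxa9* (-0.46), named after their values were seen, were the other genes of the list without overlap. *Id1*, *Egr1* and *Egr2* are also early response genes. Of the 17 dissociation response genes, 15 were fitted below 0 and 2 above, and their summed levels overlapped, as given above for *Klf4*.

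**Figure D5:**
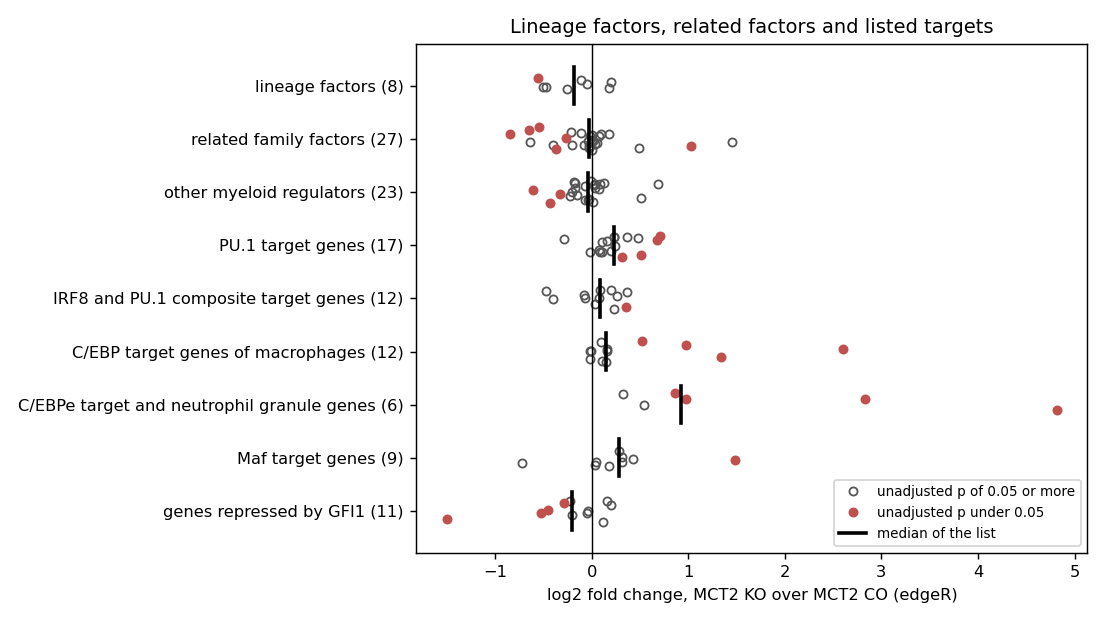
Each point is the log2 fold change of 1 tested gene (MCT2 KO over MCT2 CO, edgeR), in rows for the 8 lineage factors, their relatives and the lists of targets, with the number of genes in brackets; filled red points had an unadjusted p under 0.05 and black bars are medians. Medians range from -0.20 for genes repressed by GFI1 to 0.92 for the neutrophil granule genes, where *Ngp* passed the filter through MCT2 KO alone, against 0 over all genes tested, and no gene shown was called by edgeR.

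Markers of other cells that the CD11b+ preparation could hold were read beside the factors. The summed level of 9 fibroblast markers was 2053 to 3363 CPM in MCT2 CO and 1717 to 1827 CPM in MCT2 KO, without overlap, and 7 of 9 were fitted below 0. Much of that sum was *Col3a1*, and the groups of the next most abundant markers, *Col1a2* and *Pdgfra*, overlapped. *Klf4*, *Cebpb*, *Cebpd* and *Runx1* are expressed by fibroblasts as well, and the part of these cells in their values was not tested. Of the defining fibroblast markers, *Col3a1* was at 1187 to 2028 CPM in MCT2 CO and 805 to 1017 CPM in MCT2 KO. *Col1a2* was at 365.5 to 546.6 and 338 to 438.5 CPM, and *Pdgfra* at 352 to 483 and 352 to 438 CPM. Endothelial markers summed to 88.8 to 145 CPM over all libraries and epithelial tumor markers to 14 to 33.6 CPM, with the lung epithelial factor *Nkx2-1* at 0 counts in all 6. Nearly all of the epithelial sum was *Cdh1* (13.2 to 32 CPM), and only 2 of these 8 markers passed the filter on low counts. The sum is thus no measure of the TC1 cells. The authors state that telling TC1 from host mesenchymal cells would need further analyses, and the part of TC1 cells in the fibroblast markers was not tested. Monocyte markers summed to 1028 to 1604 CPM in MCT2 CO and 1073 to 1105 CPM in MCT2 KO, with 5 of 9 fitted above 0. Most of that sum was *Nr4a1*, also an early response gene, at 658 to 1130 and 563 to 711 CPM. The other monocyte markers were split, with *F13a1* (1.48) and *Chil3* (0.98) fitted above 0 and *Ly6c2* (-0.60) and *Plac8* (-0.37) below. Proliferation markers summed to 2395 to 2510 CPM in MCT2 CO and 2336 to 2670 CPM in MCT2 KO.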

How the data were processed

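Bulk RNA-seq of 3 MCT2 CO and 3 MCT2 KO samples was used. The authors used FastQC 0.12.0, MultiQC 1.28 and STAR 2.7.11b (GRCm38) and deposited raw counts per gene from featureCounts 2.1.1, per the labels, without normalization. The positions in the count table match those of GENCODE M21 for 2.2% of genes, so positions and exons were taken from GENCODE M21 (GRCm38) by Ensembl identifier, and promoters from RefSeq (GRCm38.p6).

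Counts were filtered with filterByExpr (minimum count 10, minimum total count 15), normalized by TMM and tested with the quasi-likelihood test of edgeR 4.0.16 in R 4.3.3 without covariates. DESeq2 1.42.0 and limma 3.58.1 (voom) served as alternatives. The procedure was tested on simulated data. Correlations used log2 CPM with a prior count of 2.

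The members and gene lists were chosen with earlier results of these data known. Named genes were the 9 factors, *Slc16a7*, in each list the 3 most abundant and the 2 with the smallest unadjusted p, the genes most like each factor in pattern, and markers at 0 counts; genes named after their values were seen are marked as such. Samples were grouped by title, where replicate numbers stand. Some genes are not reported here.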

Additional observations from a re-analysis of the deposited data

How the results depend on the processing

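No factor was called under any alternative run, and the number of calls over all genes was 83 by DESeq2 without a filter on low counts, 79 by DESeq2 on the filtered genes, 2 by edgeR without that filter, and 0 to 2 with each library left out in turn (2 without MCT2 KO replicate 2). Signs turned for *Cebpa* (0.19 without MCT2 CO replicate 1, 0.23 without MCT2 KO replicate 2), *Maf* (0.003 without MCT2 CO replicate 1) and *Spi1* (-0.039 without MCT2 KO replicate 1); the cause was not tested. With each library left out in turn, log2 fold changes ranged from -0.04 to 0.35 for *Spi1*, 0.05 to 0.36 for *Irf8*, -0.38 to 0.23 for *Cebpa*, -0.71 to -0.39 for *Cebpb*, -0.24 to 0.003 for *Maf*, -0.68 to -0.28 for *Klf4*, -0.40 to -0.12 for *Runx1* and -0.73 to -0.17 for *Gfi1*. Groups without overlap numbered 1 of 9 (*Cebpe*) with TMM and 2 of 9 (with *Runx1*) without a scaling factor. Same-numbered samples deviated with correlations from -0.247 to 0.216, and differently numbered samples from -0.212 to 0.292. No pairing by number was seen, but 3 libraries per group cannot exclude it. A fit with the replicate number as a block gave 0 calls, 1048 genes at an unadjusted p under 0.05 in place of 1264, and a log2 fold change of -0.54 for *Cebpb*. Restricting the fit to genes outside other gene spans, an alternative chosen after seeing the data, left out *Cebpb*. At 0 to 20 counts per library, *Cebpe* and *Gfi1* are limited by depth.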
